A study of Mus musculus with 18 samples.

Results

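The genes described here encode 8 proteins of the intermediate filament family: vimentin (Vim), desmin (Des), nestin (Nes), synemin (Synm) and syncoilin (Sync) of the cytoplasm, and the nuclear lamins encoded by Lmna, Lmnb1 and Lmnb2. They were taken by symbol from a table of 24514 genes, and all 8 were among the 13802 genes that passed the filter on low counts. The data were poly-A RNA-seq libraries of the line iMGT-Myh6-eGFP-MEF, mouse embryonic fibroblasts that carry doxycycline-inducible Mef2c, Gata4 and Tbx5 and a Myh6-eGFP reporter. The study asked how fibroblast identity is maintained while these factors turn the cells towards cardiomyocytes, and set an siRNA against Chst7, a carbohydrate sulfotransferase gene, against a control siRNA.

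The 18 libraries formed 6 groups of 3. The siChst7 groups at days 0, 1 and 3 and the siControl groups at days 0, 1 and 3 all carried the inducible factors. The wells of 384-well plates received 1000 cells each, which were transfected there, and 1 µg/mL doxycycline followed on the next day (day 0). The day 0 groups had no doxycycline, and the day 1 and day 3 groups had 1 or 3 days of it. Each library came from 40 pooled wells of this single line. The labels call the libraries of a group biological replicates without saying how the cultures were kept apart, so p-values measure the spread between these libraries. No group without doxycycline was followed to day 1 or 3, so the factors, time in culture and time since transfection cannot be told apart in any comparison of days.

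Intermediate filament proteins assemble through a shared coiled-coil rod into ropes that give cells and nuclei their mechanical strength. Vimentin is the filament of mesenchymal cells such as fibroblasts, desmin is its counterpart in heart, skeletal and much smooth muscle, and nestin, synemin and syncoilin join filaments of those proteins. Lamins line the inner nuclear membrane: A-type lamins come from Lmna and are usually abundant in stiff, differentiated tissues, whereas the B-type lamins of Lmnb1 and Lmnb2 stay anchored to the membrane by a lipid group.

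Total counts were 30590742 to 50021142 per library. Levels are CPM, counts scaled to the size of each library, log2FC is the log2 fold change followed by its standard error, and a gene was called where the Benjamini-Hochberg adjusted p of edgeR's quasi-likelihood test over all tested genes was under 0.05. The standard error was worked back from the F statistic of that test, whose spread was estimated over all groups together. It can therefore understate the spread of a single group, such as siChst7 at day 3. Chst7 itself averaged 0.438 CPM in siChst7 cells and 19.2 CPM in siControl cells at day 0 (log2FC = -5.47). At day 3 it averaged 2.16 CPM in siChst7 cells and 25.1 CPM in siControl cells (log2FC = -3.54). The siChst7 day 3 libraries stood apart from one another more than those of any other group. Replicate 2 lay farthest from the rest of that group over all genes, and replicate 1 held 1.96% of its counts in the ribosomal RNA gene Rn45s. Replicate 3 of siChst7 at day 0 also differed from its group. Differences between siChst7 and siControl cells in the day 3 libraries ran lower for longer genes, with rank correlations of -0.33 to -0.26 across genes, and the part of this in the results below was not tested beyond the recalculations named.

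All 8 genes changed between day 0 and day 3 under either siRNA. In siControl cells at day 3 against day 0, 4 rose (Des, Synm, Nes and Vim), as did 33.9% of all tested genes, and 4 fell (Lmnb2, Lmnb1, Sync and Lmna), as did 39.5%, so that 73.4% of all genes were called. In siChst7 cells 5 rose, Sync among them, against 37.9% of all genes, and the 3 lamin genes fell, against 37.8%, with 75.7% called in all. At day 1 against day 0, siChst7 cells had 5 genes higher and 2 lower, against 29.5% and 30.5% of all genes (60% called). Over the same days siControl cells had 4 higher and 3 lower, against 29.5% and 30.8% (60.3% called). At day 3 against day 1, siChst7 cells had 2 higher and 5 lower, against 31.7% and 33.5% (65.2% called), and siControl cells had 2 higher and 3 lower, against 22.8% and 32.3% (55.2% called). All 8 genes had groups that did not overlap at day 1 against day 0 and at day 3 against day 0 under both siRNAs, where 66.3% and 73.6% of all genes did so in siChst7 cells and 69.1% and 79.2% in siControl cells. At day 3 against day 1 it was 7 genes in siChst7 cells against 64.5% of all, and 6 in siControl cells against 65.6%.

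Between siRNAs, 4 genes were lower with siChst7 at day 0 (Sync, Nes, Vim and Lmna) and 4 were uncalled, where 27.4% of all genes were called, 13.9% higher and 13.5% lower. At day 1, 3 were lower (Sync, Vim and Lmna) and 2 were higher (Lmnb2 and Nes), where 17.6% of all genes were called, 8.86% higher and 8.72% lower. At day 3, 7 of the 8 were lower and Lmnb2 was uncalled, where 44.7% of all genes were called, 23.1% higher and 21.6% lower. The siRNA groups did not overlap for 5 of the 8 genes at day 0, 7 at day 1 and 8 at day 3, against 43.5%, 39.4% and 49.1% of all genes on those days. The median log2FC of the 8 genes between siRNAs was -0.24 at day 0, -0.08 at day 1 and -0.21 at day 3, where the median of all genes was 0.01 on each day. The day 1 count went down to 3 without siChst7 replicate 2 of that day and up to 6 without siChst7 day 3 replicate 2, and was 7 when only the 2 groups compared were used. The day 3 count went down to 5 without siChst7 replicate 1 or siControl replicate 3, and with only the 2 groups compared.

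**Figure D1:**
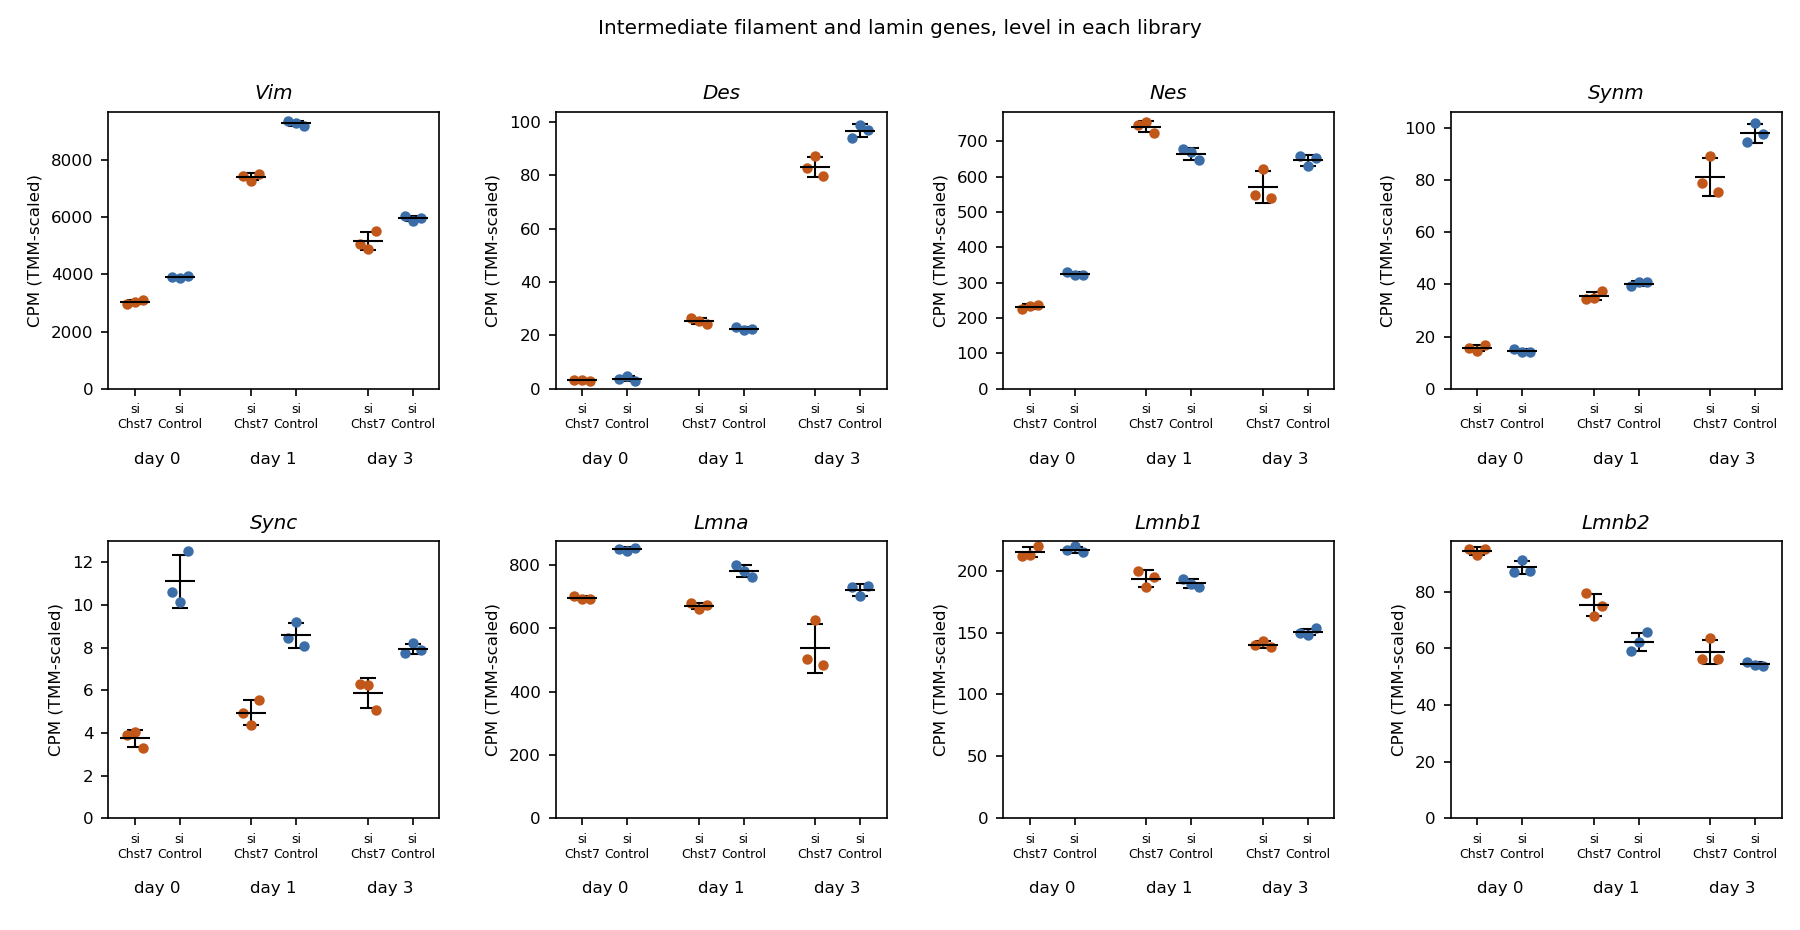
Level of each gene in CPM (vertical axis, each panel with its own scale) by day, siChst7 left of siControl. Points are libraries and bars are the mean ± SD of 3 libraries; Des and Synm climb on both days, Vim peaks at day 1, and the 3 lamin genes end below their day 0 level.

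Desmin and synemin transcripts increased most. Des, the muscle filament that ties the contractile apparatus to the membrane and nucleus, was nearly silent at the start. At day 0, Des had 3.41, 3.46 and 3.00 CPM in siChst7 cells, against 3.57, 4.78 and 2.90 CPM in siControl cells. At day 1, Des had 26.4, 25.3 and 24.2 CPM in siChst7 cells, against 23.00, 21.9 and 22.4 CPM in siControl cells. At day 3, Des had 82.7, 87.1 and 79.7 CPM in siChst7 cells, against 94.1, 98.99 and 96.8 CPM in siControl cells. Every library of a later day lay above every library of an earlier one, whichever siRNA the cells had received. In siControl cells Des rose at day 1 over day 0 (log2FC = 2.58 ± 0.10, edgeR adjusted p = 8.51e-16) and again at day 3 over day 1 (log2FC = 2.11 ± 0.08, edgeR adjusted p = 2.95e-15). Against siControl, siChst7 left Des without a call at day 0 (log2FC = -0.19 ± 0.12, edgeR adjusted p = 0.289), with groups that overlapped. It was uncalled at day 1 too (log2FC = 0.17 ± 0.08, edgeR adjusted p = 0.166), although all 3 siChst7 libraries lay above all 3 siControl ones, and was called when only the 2 groups compared were used (0.17). At day 3 Des was lower in siChst7 cells (log2FC = -0.22 ± 0.07, edgeR adjusted p = 0.0213), with no overlap. That call was lost without siChst7 replicate 1 (log2FC -0.21), siControl replicate 2 (-0.20) or siControl replicate 3 (-0.22) of that day. At day 0, a call appeared without siControl replicate 3 (-0.35), and the sign turned without siControl replicate 2 (0.03).

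Synm, a large filament protein that co-assembles with desmin or vimentin and binds proteins of the costamere, followed the same course from a higher start. At day 0, Synm had 15.6, 14.4 and 16.8 CPM in siChst7 cells, against 15.2, 14.2 and 14.1 CPM in siControl cells. At day 1, Synm had 34.5, 34.98 and 37.4 CPM in siChst7 cells, against 39.2, 40.8 and 41.02 CPM in siControl cells. At day 3, Synm had 78.96, 89.3 and 75.5 CPM in siChst7 cells, against 94.6, 102 and 97.5 CPM in siControl cells. The days did not overlap under either siRNA, whereas the siRNA groups overlapped at day 0 only. Synm rose in siControl cells at day 1 over day 0 (log2FC = 1.48 ± 0.07, edgeR adjusted p = 1.26e-14) and at day 3 over day 1 (log2FC = 1.28 ± 0.06, edgeR adjusted p = 1.73e-13). In siChst7 cells its rise at day 3 over day 0 was 2.38 ± 0.07, against 2.76 ± 0.07 in siControl cells. With siChst7 its level was uncalled at day 0 (log2FC = 0.11 ± 0.07, edgeR adjusted p = 0.288) and at day 1 (log2FC = -0.18 ± 0.06, edgeR adjusted p = 0.0546), and lower at day 3 (log2FC = -0.27 ± 0.06, edgeR adjusted p = 0.000876). The day 1 difference was called without siChst7 day 0 replicate 3 (-0.18), siChst7 day 3 replicate 2 (-0.18) or siChst7 day 3 replicate 3 (-0.19), and when only the 2 groups compared were used (-0.19).

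The rise of desmin and synemin went along with that of muscle markers. The summed level of 10 cardiac muscle markers averaged 1974 CPM in siChst7 cells and 1348 CPM in siControl cells at day 3, and 25.1 CPM in siChst7 and 14.9 CPM in siControl cells at day 0. Tnnt2 led the day 3 sum, at 815 CPM in siChst7 and 680 CPM in siControl cells. Actn2 averaged at most 0.0537 CPM in any group. Myh6 was lower at day 3 than at day 1, at 2.51 against 3.36 CPM in siChst7 cells and 1.42 against 2.86 CPM in siControl cells. At day 3, the cardiac sum was 1607 to 2209 CPM across siChst7 libraries, above 1293 to 1385 CPM across siControl libraries, and 7 of 9 tested cardiac markers were called higher, as were 23.1% of all tested genes. Des and Synm lay the other way on that day. In bulk libraries, fewer cells that express a gene and less of its RNA per cell cannot be told apart, and the part of cell composition in these results was not tested.

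The sequence just before the start site is shown for Des and Synm, the genes that rose most, since all groups carry factors that bind named motifs. Both are the 250 bases before the start in RefSeq's mouse table (GRCm38.p6), read 5′ to 3′ on the gene's strand, Des at chr1:75360042-75360291 on the plus strand and Synm at chr7:67759743-67759992 on the minus strand. Capitals mark every match, on either strand, to GATAA (a core letter run of GATA sites), GGTGT (of T-box sites), CANNTG (the E-box), TATAAA (the TATA box), the MEF2 site or the CArG box. No 2 matches share a base.
Des: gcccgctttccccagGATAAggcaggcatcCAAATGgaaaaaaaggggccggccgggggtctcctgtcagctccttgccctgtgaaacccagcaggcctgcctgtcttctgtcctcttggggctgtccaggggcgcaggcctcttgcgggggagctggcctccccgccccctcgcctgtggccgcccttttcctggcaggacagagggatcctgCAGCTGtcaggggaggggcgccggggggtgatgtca
Synm: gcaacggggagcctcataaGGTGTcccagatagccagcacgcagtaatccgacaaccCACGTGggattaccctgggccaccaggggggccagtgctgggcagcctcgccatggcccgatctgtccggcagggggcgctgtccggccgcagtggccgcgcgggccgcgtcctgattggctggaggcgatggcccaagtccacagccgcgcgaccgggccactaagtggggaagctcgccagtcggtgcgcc
Des held GATAA at -235 and CANNTG at -220 and -36 from the start, and Synm held GGTGT at -231 and CANNTG at -193. Across 32851 promoters of this length, 22.6% held GATAA, 36.2% GGTGT and 66.2% CANNTG. Neither window held a MEF2 site, found in 2.92% of the promoters, or a CArG box, found in 1.47%. The Des positions rest on the RefSeq start alone, since bases just after it were found in no GENCODE transcript of Des, unlike for Synm. These letters describe the windows and were not tested for binding.

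Vimentin was by far the most abundant of the cytoplasmic filament transcripts per length. At day 0, Vim had 2962, 3028 and 3086 CPM in siChst7 cells, against 3898, 3876 and 3951 CPM in siControl cells. At day 1, Vim had 7449, 7278 and 7513 CPM in siChst7 cells, against 9358, 9292 and 9177 CPM in siControl cells. At day 3, Vim had 5067, 4889 and 5508 CPM in siChst7 cells, against 6045, 5875 and 5978 CPM in siControl cells. On each of the 3 days every siChst7 library lay below every siControl library. The difference was called at day 0 (log2FC = -0.37 ± 0.04, edgeR adjusted p = 3.33e-07), day 1 (log2FC = -0.32 ± 0.04, edgeR adjusted p = 4.76e-06) and day 3 (log2FC = -0.21 ± 0.04, edgeR adjusted p = 0.000205). Within siControl cells Vim rose at day 1 over day 0 (log2FC 1.25 ± 0.04) and fell at day 3 relative to day 1 (-0.64 ± 0.04), and at day 3 it was higher than at day 0 (0.61 ± 0.04). Within siChst7 cells the day 1 rise over day 0 was 1.29 ± 0.04, the day 3 fall relative to day 1 was -0.52 ± 0.04, and day 3 against day 0 was 0.77 ± 0.04. All 6 groups were apart from their neighbours in the order of levels, from siControl at day 1 down to siChst7 at day 0.

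Nestin, a filament protein of neural and muscle progenitors that needs vimentin or desmin to assemble, was the one of the 8 genes called both lower and higher with siChst7, depending on the day. At day 0, Nes had 226, 235 and 237 CPM in siChst7 cells, against 331, 322 and 322 CPM in siControl cells. At day 1, Nes had 747, 754 and 724 CPM in siChst7 cells, against 679, 670.1 and 647 CPM in siControl cells. At day 3, Nes had 549, 621 and 539 CPM in siChst7 cells, against 659, 629 and 652 CPM in siControl cells. The siRNA groups did not overlap on any day, with siChst7 cells low at day 0, high at day 1 and low again at day 3. Nes was lower with siChst7 at day 0 (log2FC = -0.48 ± 0.05, edgeR adjusted p = 4.77e-08), higher at day 1 (log2FC = 0.16 ± 0.05, edgeR adjusted p = 0.0187) and lower at day 3 (log2FC = -0.18 ± 0.05, edgeR adjusted p = 0.00251). The day 1 call, the smallest of these, was lost without siChst7 replicate 1 (0.15), siChst7 replicate 2 (0.15) or siControl replicate 3 (0.14) of that day, and with library totals as the scaling (0.15). The day 3 call was lost when only the 2 groups compared were used (-0.18). In siControl cells Nes rose at day 1 over day 0 (1.03 ± 0.05) and had no call at day 3 against day 1 (log2FC = -0.04 ± 0.05, edgeR adjusted p = 0.472), a value whose sign turned with the scaling. In siChst7 cells its day 1 rise over day 0 was 1.67 ± 0.05, and it fell at day 3 relative to day 1 (-0.38 ± 0.05).

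Markers of the neural lineage were low throughout. The summed level of 8 such markers was 20.7 to 21.5 CPM in siChst7 libraries and 16.3 to 17.2 CPM in siControl libraries at day 0. At day 1 it was 8.36 to 9.30 CPM in siChst7 and 7.87 to 8.46 CPM in siControl libraries. At day 3 it was 14.4 to 15.1 CPM in siChst7 and 16.8 to 18.5 CPM in siControl libraries. Mean Nes was highest at day 1 under either siRNA, but siControl Nes at day 3 overlapped day 1. Sox2 made up most of the day 0 sum, at 19.03 CPM in siChst7 and 13.8 CPM in siControl cells.

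The windows before the start of Vim and Nes are shown because these genes shared the rise at day 1 under both siRNAs. They are 250 bases each from the same RefSeq table, Vim at chr2:13574061-13574310 and Nes at chr3:87970843-87971092, both on the plus strand, with the same motifs in capitals.
Vim: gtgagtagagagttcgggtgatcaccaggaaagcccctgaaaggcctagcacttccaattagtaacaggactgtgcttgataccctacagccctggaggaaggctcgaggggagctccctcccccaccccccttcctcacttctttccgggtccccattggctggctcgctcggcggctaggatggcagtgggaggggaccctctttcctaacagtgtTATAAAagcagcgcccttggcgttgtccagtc
Nes: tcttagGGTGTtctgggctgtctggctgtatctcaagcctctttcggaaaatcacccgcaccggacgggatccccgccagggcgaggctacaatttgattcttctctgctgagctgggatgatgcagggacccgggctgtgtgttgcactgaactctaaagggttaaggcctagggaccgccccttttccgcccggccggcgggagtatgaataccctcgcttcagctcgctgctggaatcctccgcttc
Vim held TATAAA at -32, a run found in 12.4% of the 32851 promoters, and Nes held GGTGT at -244. Neither window held a MEF2 site or a CArG box, and neither held GATAA or CANNTG. Of the 4 windows shown, those of Des and Synm held CANNTG, a run found in 66.2% of the promoters. The windows of Sync and Lmnb2, not shown, also held it, and those of Lmna did not.

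Syncoilin binds dystrobrevin and desmin in muscle, and its gene lies at chr4:129287256-129309383 (GRCm38.p6, plus strand). Of the 8 genes, Sync had the largest siChst7 difference on each day, though close to that of Lmna at day 3. At day 0, Sync had 3.93, 4.03 and 3.30 CPM in siChst7 cells, against 10.6, 10.2 and 12.5 CPM in siControl cells. At day 1, Sync had 4.96, 4.37 and 5.55 CPM in siChst7 cells, against 8.46, 9.22 and 8.08 CPM in siControl cells. At day 3, Sync had 6.30, 6.23 and 5.06 CPM in siChst7 cells, against 7.73, 8.20 and 7.87 CPM in siControl cells. Every siChst7 library lay below every siControl library of its day, and the gap was widest at day 0 and narrowest at day 3. Sync was lower with siChst7 at day 0 (log2FC = -1.56 ± 0.12, edgeR adjusted p = 1.14e-09), day 1 (log2FC = -0.79 ± 0.12, edgeR adjusted p = 4.77e-05) and day 3 (log2FC = -0.43 ± 0.12, edgeR adjusted p = 0.00425). In siControl cells Sync fell at day 1 relative to day 0 (-0.37 ± 0.11) and at day 3 relative to day 0 (-0.48 ± 0.11). In siChst7 cells it rose at day 1 over day 0 (0.40 ± 0.12) and at day 3 over day 0 (0.65 ± 0.12). The siControl fall by day 1 was lost without siControl day 0 replicate 3 (-0.28). The siChst7 rise by day 1 was lost without siChst7 day 0 replicate 3 (0.31) or siChst7 day 1 replicate 3 (0.31). Day 3 against day 1 in siChst7 cells was uncalled (log2FC = 0.25 ± 0.12, edgeR adjusted p = 0.0759) and was called without siChst7 day 1 replicate 3 (0.33) or siChst7 day 3 replicate 3 (0.36), and with library totals (0.36), upper quartile scaling (0.33) or a stricter filter (0.28).

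Sync had 142 to 562 reads per library, and its exons share 782 bases with those of Rbbp4 on the other strand. Whether reads were counted by strand is not given in the sources used here, so reads of the pair cannot be told apart over those bases. Rbbp4, a histone-binding protein gene, averaged 283 CPM in siChst7 cells and 278 CPM in siControl cells at day 0 (log2FC = 0.03, edgeR adjusted p = 0.631). It was higher with siChst7 at day 1 (log2FC = 0.14, edgeR adjusted p = 0.00918), opposite to Sync. Synm shares 510 exon bases with Ttc23 in the same way, and Ttc23 was uncalled between siRNAs on each day (log2FC 0.12, -0.06 and -0.07 at days 0, 1 and 3) and rose in siControl cells at day 3 over day 0 (1.20). Des shares 220 exon bases with Gm15179, which had at most 2 reads in any library.

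The siChst7 differences of Sync, Nes and Vim at day 0 went along with lower smooth muscle markers. The summed level of 7 smooth muscle markers was 621 to 676 CPM in siChst7 libraries and 1576 to 1725 CPM in siControl libraries at day 0. At day 1 it was 1736 to 1829 CPM in siChst7 and 2230.4 to 2334 CPM in siControl libraries. At day 3 it was 3429.8 to 4201 CPM in siChst7 and 3077 to 3196 CPM in siControl libraries, the other way round. Of the 7, 5 were called lower at day 0 and 3 at day 1, against 13.5% and 8.72% of all tested genes, and 4 were called higher at day 3, against 23.1%. Acta2, smooth muscle actin, had log2FC -1.47, -0.41 and 0.20 on those days, each called. Acta2 made up most of the sum in every group, at 468 CPM in siChst7 and 1294 CPM in siControl cells at day 0. No marker of this list was at 0 in any group, but the defining gene Myh11 averaged at most 0.863 CPM. The part of smooth muscle markers in the results on filament genes was not tested.

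Fibroblast markers lay the other way from vimentin at day 0. The summed level of 8 was 3699.7 to 4176 CPM in siChst7 and 3281 to 3525 CPM in siControl libraries at day 0, and 3652 to 3824 CPM in siChst7 and 3834 to 4274 CPM in siControl libraries at day 3. Of the 6 tested, 3 were called higher with siChst7 at day 0 and 3 at day 1, against 13.9% and 8.86% of all tested genes. At day 3, 2 were higher and 2 lower, against 23.1% and 21.6%. Although the siControl sum was higher at day 3 than at day 0, 5 of the 6 fell and 1 rose. Of all genes, 39.5% fell and 33.9% rose over those days, and the median log2FC of the 6 was -0.57. In siChst7 cells 4 fell and 1 rose, against 37.8% and 37.9%. Col1a1 led the sum in every group. Lum and Thy1, also on this list, were at or near 0 throughout, which limits how far the labelled cell type can be read from these markers. Skeletal muscle markers summed to 74.7 to 97.8 CPM in siChst7 and 71.97 to 77.9 CPM in siControl libraries at day 3, nearly all of it Acta1, and the defining gene Myod1 had at most 2 reads in any library. Of the other lists, endothelial markers summed to at most 3.69 CPM and epithelial markers to at most 0.605 CPM in a group mean. Macrophage markers averaged 29.1 CPM in siChst7 and 27.2 CPM in siControl cells at day 0, with Adgre1 at 0 in both.

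**Figure D2:**
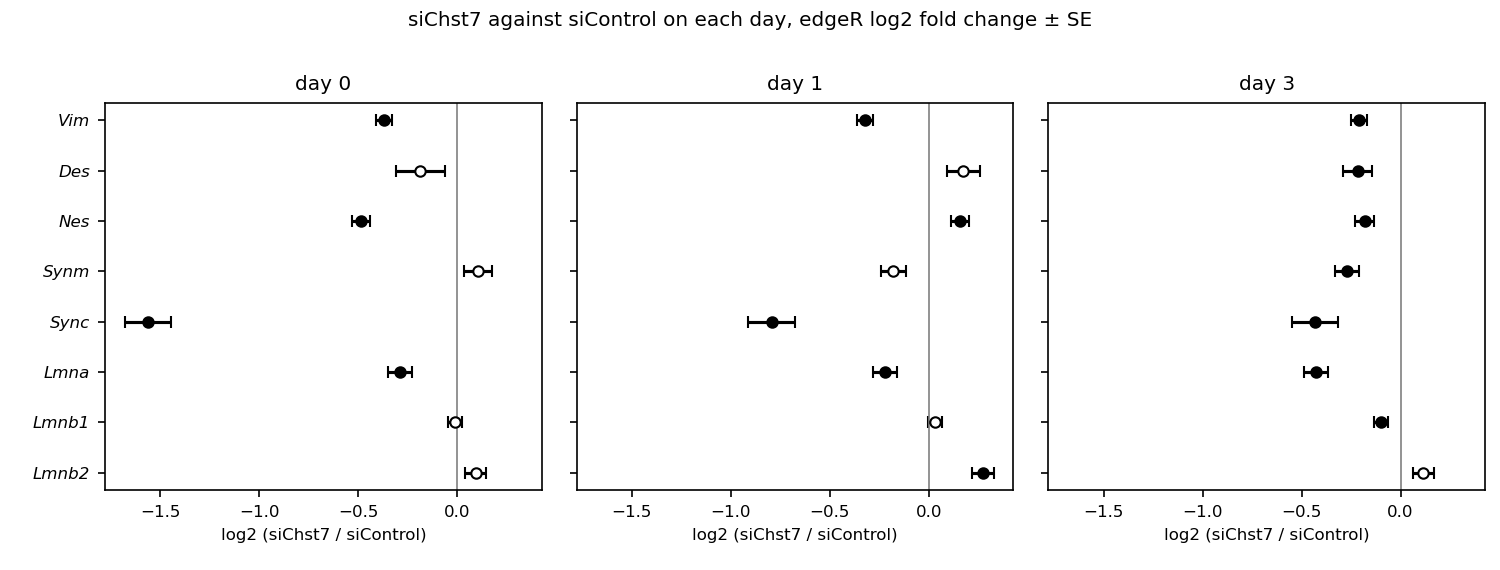
log2FC of siChst7 over siControl (horizontal axis) for each gene at days 0, 1 and 3. Bars are the standard error, filled points passed the adjusted p threshold of 0.05 and open points did not; Sync lies farthest from 0 at day 0, Nes lies on both sides of 0, and Lmnb2 is the lamin gene to the right of 0 with a call at day 1.

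Lmna, at chr3:88481148-88509932 on the minus strand, encodes lamins A and C, merged in a single count here, and was lower in siChst7 cells on each day. At day 0, Lmna had 703, 692 and 693 CPM in siChst7 cells, against 851, 845 and 855 CPM in siControl cells. At day 1, Lmna had 679.8, 659.8 and 672 CPM in siChst7 cells, against 799, 781 and 763 CPM in siControl cells. At day 3, Lmna had 502, 625 and 484 CPM in siChst7 cells, against 732, 701 and 732 CPM in siControl cells. No siChst7 library reached the siControl libraries of its day, and at day 3 siChst7 replicate 2 lay well above the other two. The difference was called at day 0 (log2FC = -0.29 ± 0.06, edgeR adjusted p = 0.000962), day 1 (log2FC = -0.22 ± 0.06, edgeR adjusted p = 0.0137) and day 3 (log2FC = -0.43 ± 0.06, edgeR adjusted p = 9.94e-06). The day 1 call was lost without siChst7 replicate 2 (-0.21) or siControl replicate 1 (-0.20) of that day. The day 3 value ranged over -0.55 to -0.38 with 1 library left out. Over days, siControl cells had log2FC -0.12 ± 0.06 at day 1 against day 0 and -0.11 ± 0.06 at day 3 against day 1, both uncalled, and both were called without siChst7 day 3 replicate 2 (-0.12 and -0.11), whose spread enters the shared estimate, and with only the 2 groups compared (-0.11 and -0.05). Day 3 against day 0 was lower in siControl cells (log2FC = -0.24 ± 0.06, edgeR adjusted p = 0.00141), a call lost with library totals (-0.09) or upper quartile scaling (-0.14). In siChst7 cells Lmna fell by day 3 relative to day 0 (-0.37 ± 0.06).

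The B-type lamin genes fell with the days and differed little or the other way between siRNAs. Lmnb1 was at 215 ± 4.10 CPM in siChst7 and 217 ± 2.38 CPM in siControl cells at day 0 (SD, n = 3 each). At day 1 it was at 194 ± 6.64 CPM in siChst7 and 189.6 ± 3.59 CPM in siControl cells. At day 3 it was at 140.3 ± 2.51 CPM in siChst7 and 150.4 ± 2.65 CPM in siControl cells. The groups overlapped at days 0 and 1. It was uncalled between siRNAs at day 0 (log2FC = -0.01 ± 0.04, edgeR adjusted p = 0.823) and day 1 (log2FC = 0.03 ± 0.04, edgeR adjusted p = 0.642) and slightly lower with siChst7 at day 3 (log2FC = -0.10 ± 0.04, edgeR adjusted p = 0.0296). That last call was lost without siChst7 replicate 1 (-0.10), siControl replicate 1 (-0.11) or siControl replicate 3 (-0.09) of day 3, and when only the 2 groups were used (-0.10). By day 3 relative to day 0, Lmnb1 fell in siChst7 cells (-0.61 ± 0.04) and in siControl cells (-0.53 ± 0.04).

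Lmnb2, at chr10:80901363-80918245 on the minus strand, was the lamin gene called higher with siChst7. At day 0, Lmnb2 had 95.2, 92.99 and 95.3 CPM in siChst7 cells, against 87.1, 91.2 and 87.5 CPM in siControl cells. At day 1, Lmnb2 had 79.5, 71.6 and 74.9 CPM in siChst7 cells, against 59.1, 62.2 and 65.7 CPM in siControl cells. At day 3, Lmnb2 had 56.1, 63.8 and 56.3 CPM in siChst7 cells, against 55.2, 54.04 and 53.9 CPM in siControl cells. The siChst7 libraries lay above the siControl libraries on each day. Only the day 1 difference was called (log2FC = 0.27 ± 0.05, edgeR adjusted p = 0.000852), and those at day 0 (log2FC = 0.09 ± 0.05, edgeR adjusted p = 0.203) and day 3 (log2FC = 0.11 ± 0.05, edgeR adjusted p = 0.0901) were not. Lmnb2 fell by day 3 relative to day 0 in siChst7 cells (-0.68 ± 0.05) and in siControl cells (-0.70 ± 0.05). Its siControl fall at day 3 relative to day 1 (log2FC = -0.20 ± 0.05, edgeR adjusted p = 0.00348) was not called with library totals (-0.05), upper quartile scaling (-0.10), no filter (-0.14) or a stricter filter (-0.13).

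The balance of A-type over B-type lamin transcripts per length lay lower in siChst7 than in siControl libraries on every day. The ratio of Lmna to the sum of Lmnb1 and Lmnb2, each in RPKM, which is CPM per kilobase of gene length, was 2.03, 2.01 and 1.96 in siChst7 libraries and 2.48, 2.41 and 2.51 in siControl libraries at day 0. At day 1 the ratio was 2.16, 2.26 and 2.21 in siChst7 libraries and 2.78, 2.74 and 2.67 in siControl libraries. At day 3 the ratio was 2.27, 2.69 and 2.21 in siChst7 libraries and 3.15, 3.06 and 3.12 in siControl libraries. The siRNA groups did not overlap on any day, and the highest siChst7 library at day 3 was replicate 2, the library with the most Lmna of its group. In siControl cells the ratio averaged 2.47 ± 0.0486 at day 0, 2.73 ± 0.0553 at day 1 and 3.11 ± 0.0495 at day 3 (SD, n = 3 each), with no overlap between days. In siChst7 cells it averaged 2.00 ± 0.0395 at day 0, 2.21 ± 0.0524 at day 1 and 2.39 ± 0.262 at day 3. The share of Lmna among the 3 lamin genes per length averaged 66.7% in siChst7 and 71.1% in siControl cells at day 0, and 70.4% in siChst7 and 75.7% in siControl cells at day 3. The two-sided exact permutation test between siRNAs gave p = 0.1 on each day, the smallest that 3 libraries against 3 allow.

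**Figure D3:**
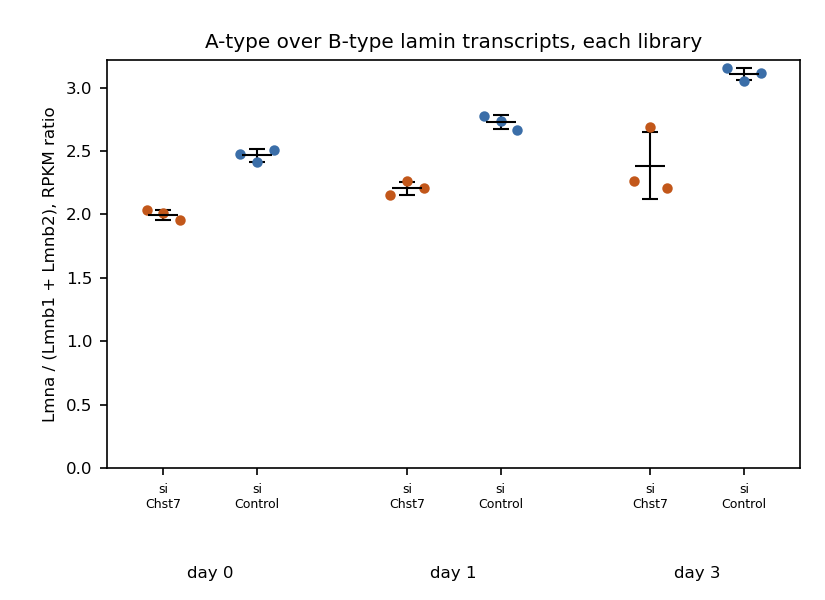
Ratio of Lmna to Lmnb1 plus Lmnb2 in RPKM (vertical axis) at days 0, 1 and 3, siChst7 left of siControl. Points are libraries and bars the mean ± SD; all siControl libraries lie above the siChst7 libraries of their day, and siChst7 at day 3 is the most spread group.

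Per length, the filament transcripts were almost all vimentin. Vim averaged 1649.5 RPKM in siChst7 and 2131 RPKM in siControl cells at day 0, where Nes averaged 37.9 RPKM in siChst7 and 53.1 RPKM in siControl cells. Des averaged 27.1 RPKM in siChst7 and 31.5 RPKM in siControl cells at day 3, above Synm at 10.3 RPKM in siChst7 and 12.5 RPKM in siControl cells. The share of Vim among the 5 cytoplasmic genes averaged 97.5% in siChst7 and 97.2% in siControl cells at day 0, and 95.5% in both at day 3. The share of Des averaged 0.0635% in siChst7 and 0.0559% in siControl cells at day 0, and 0.925% in siChst7 and 0.926% in siControl cells at day 3. At day 1 the share of Nes averaged 2.90% in siChst7 and 2.09% in siControl cells.

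Whether the siChst7 difference changed with the day was tested as an interaction. From day 0 to day 1 it went up for 2 of the 8 genes, where it changed for 11.7% of all tested genes (6.2% up and 5.5% down). They were Sync (log2FC = 0.77 ± 0.17, edgeR adjusted p = 0.00319) and Nes (log2FC = 0.64 ± 0.06, edgeR adjusted p = 5.34e-07), a smaller reduction of Sync and a turn to higher Nes at day 1. From day 1 to day 3 it changed for Des (log2FC = -0.39 ± 0.11, edgeR adjusted p = 0.0121) and Nes (log2FC = -0.34 ± 0.06, edgeR adjusted p = 0.000664), both more negative at day 3, where it changed for 28.4% of all genes (15.3% up and 13.1% down). From day 0 to day 3 it changed for 4 genes, 3 up and 1 down, where it changed for 38.8% of all genes (20.7% up and 18.1% down). Those were Sync (log2FC = 1.13 ± 0.16, edgeR adjusted p = 1.59e-05), Nes (log2FC = 0.30 ± 0.06, edgeR adjusted p = 0.000834), Vim (log2FC = 0.16 ± 0.06, edgeR adjusted p = 0.0300) and Synm (log2FC = -0.38 ± 0.09, edgeR adjusted p = 0.00255).

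The Vim call depended on single libraries and on the scaling. Leaving out siChst7 day 3 replicate 3 gave 0.06, and the call was also lost without siChst7 day 0 replicate 1 (0.14), siControl day 0 replicate 3 (0.15), siControl day 3 replicate 2 (0.15) or siControl day 3 replicate 3 (0.16). It was also lost with library totals (0.05), upper quartile scaling (0.12), no filter (0.10), a gene length correction (0.04), DESeq2 size factors (0.11), a stricter filter (0.11), the DESeq2 test (0.11) and the compared groups alone (0.11). Without siChst7 day 3 replicate 2, the library high in Lmna, 6 genes changed from day 1 to day 3, and Lmna was among them (-0.33, against -0.21 with all libraries). Lmna was also called over those days with all libraries under DESeq2 size factors (-0.24), no filter (-0.27), a stricter filter (-0.24) and the DESeq2 test (-0.24). Without the same library Lmna also changed from day 0 to day 3 (-0.26, against -0.14), as it did with no filter (-0.19), and 4 genes changed from day 0 to day 1, Synm (-0.29) and Lmnb2 (0.18) being the added ones. The other added genes from day 1 to day 3 were Vim (0.15), Lmnb1 (-0.14) and Lmnb2 (-0.23). Des from day 0 to day 1 was uncalled (log2FC = 0.36 ± 0.15, edgeR adjusted p = 0.129) and was called without siControl day 0 replicate 3 (0.52). Synm over the same days was uncalled (log2FC = -0.29 ± 0.09, edgeR adjusted p = 0.0526) and was also called without siChst7 day 0 replicate 2 (-0.34), siChst7 day 1 replicate 3 (-0.32) or siChst7 day 3 replicate 3 (-0.29), and with library totals (-0.35), the DESeq2 test (-0.29) or the compared groups alone (-0.29). Lmnb1 from day 1 to day 3 was uncalled (log2FC = -0.13 ± 0.05, edgeR adjusted p = 0.0640) and was also called without siChst7 day 0 replicate 3 (-0.13) or siChst7 day 1 replicate 2 (-0.16). With all libraries Lmnb1 was called there under DESeq2 size factors (-0.17), library totals (-0.17), no filter (-0.19), a stricter filter (-0.17), the DESeq2 test (-0.17), the compared groups alone (-0.17) and a length correction (-0.16).

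Across the 18 libraries, the log2 levels of Des and Synm had a Pearson correlation of 0.987, those of Vim and Nes of 0.913 and those of Lmnb1 and Lmnb2 of 0.877. Synm and Lmnb2 ran opposite (-0.944), as did Des and Lmnb1 (-0.924), while Sync and Lmna had 0.562. These points share the days and siRNAs, so the values describe a common course over 6 groups of libraries. Among 9900 genes of at least 5 CPM, the course most like that of Des was that of Fbln5, an elastic fibre gene (0.995), followed by Flt1, a VEGF receptor gene (0.994). For Synm it was Rilpl1 (0.997), followed by Tob1 (0.994) and Notch3, a Notch receptor gene (0.993). Vim was nearest to the Wnt receptor gene Fzd7 (0.991), and Nes to Fyn, a Src-family kinase gene (0.997), followed by the ligand gene Tgfb2 (0.989). The nearest to Sync was Pcyox1l (0.962), followed by Dhrs13 (0.931) and Csrp1, a LIM protein gene of smooth muscle (0.920). Lmna was nearest to Tmbim6 (0.957), Lmnb1 to Usp42 (0.994) and Lmnb2 to Polr3e (0.981).

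Genes whose proteins anchor these filaments were read from lists, and those named average at least 5 CPM over all libraries. Of 16 tested genes of the dystrophin complex and costamere, which couple the cytoskeleton of muscle and fibroblasts to the matrix, 9 were lower and 1 higher with siChst7 at day 0, where 13.5% and 13.9% of all genes were, with a median log2FC of -0.28 against 0.01 over all genes. Vinculin, Vcl (log2FC -0.67 ± 0.04), talin 2, Tln2 (-0.45 ± 0.05), and the dystrobrevin gene Dtna (-0.75 ± 0.09), whose protein binds syncoilin, were the called genes of at least 5 CPM with the largest differences. At day 1, 5 were lower and 11 uncalled, against 8.72% of all genes lower. At day 3, 9 were lower and 2 higher, against 21.6% and 23.1% of all genes, with dystroglycan, Dag1, lower (-0.36 ± 0.05) and Dtna higher (0.41 ± 0.08). In siControl cells 11 rose and 3 fell by day 3 relative to day 0, against 33.9% and 39.5% of all genes. Those of at least 5 CPM that rose most were the sarcoglycan gene Sgcb (2.19 ± 0.05), utrophin, Utrn (1.38 ± 0.04), and Dag1 (1.21 ± 0.05).

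Of 10 tested linkers between filaments, junctions and other cytoskeletons, 4 were lower and 1 higher with siChst7 at day 0, against 13.5% and 13.9% of all genes (median log2FC -0.21, against 0.01 over all genes). The desmosomal gene Pkp2 was lower (-1.12 ± 0.13), as was plectin, Plec (-0.28 ± 0.05), the main cross-linker of vimentin and desmin, whereas plakoglobin, Jup, was higher (0.56 ± 0.07). At day 3 Pkp2 was higher (0.65 ± 0.11) and Jup lower (-0.26 ± 0.06) with siChst7. Macf1, the most abundant linker that was uncalled, had log2FC -0.06 ± 0.04 at day 0 and 0.00 ± 0.04 at day 3. In siControl cells 7 of the 10 rose by day 3 relative to day 0 and 1 fell, against 33.9% and 39.5% of all genes, with higher Jup (3.89 ± 0.07) and higher Dst, a spectraplakin (1.01 ± 0.05).

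Of 15 other cytoplasmic filament genes, 9 passed the filter on low counts. With siChst7, 1 was higher and 1 lower at day 0, 4 were higher at day 1 and 3 at day 3, where 13.9%, 8.86% and 23.1% of all genes were higher on those days. Krt80, a type II keratin, was higher with siChst7 at day 0 (0.40 ± 0.07), day 1 (0.78 ± 0.07) and day 3 (0.29 ± 0.07). In siControl cells 3 rose and 3 fell by day 3 relative to day 0, near the 33.9% and 39.5% of all genes, Iffo1 among the first (1.52 ± 0.09) and Iffo2 among the second (-0.56 ± 0.06).

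Partners of the lamina were read in the same way. Of 19 tested lamina and inner nuclear membrane genes, 3 were lower and 1 higher with siChst7 at day 0, against 13.5% and 13.9% of all genes, and the median log2FC was 0.00, against 0.01 over all genes. With siChst7 the lower genes were Nrm, nurim of the inner nuclear membrane (-0.57 ± 0.08), emerin, Emd (-0.28 ± 0.04), which needs lamin A for its place in the membrane, and Tmem43, also called LUMA (-0.24 ± 0.04). At day 3, 6 were lower, Nrm (-0.42 ± 0.07) and Sun2 of the nucleus-to-cytoskeleton bridge (-0.28 ± 0.04) among them, and 4 were higher, Banf1 (0.35 ± 0.09) among them, against 21.6% and 23.1% of all genes. In siControl cells 10 of 19 fell by day 3 relative to day 0 and 5 rose, against 39.5% and 33.9% of all genes, with lower Tmpo (-0.74 ± 0.03), which encodes the lamin-binding LAP2 proteins, and higher Nrm (0.62 ± 0.07). Of the 5 enzymes that process prelamin A, 4 fell over the same days, against 39.5% of all genes. The farnesyltransferase subunit gene Fntb (-0.87 ± 0.06) was among those that fell. With siChst7 at day 3, 2 of the 5 were higher and 1 lower, against 23.1% and 21.6% of all genes. Their median log2FC was -0.03, against 0.01 over all genes. Zmpste24, the protease that cuts prelamin A, was among the higher ones (0.29 ± 0.06).

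**Figure D4:**
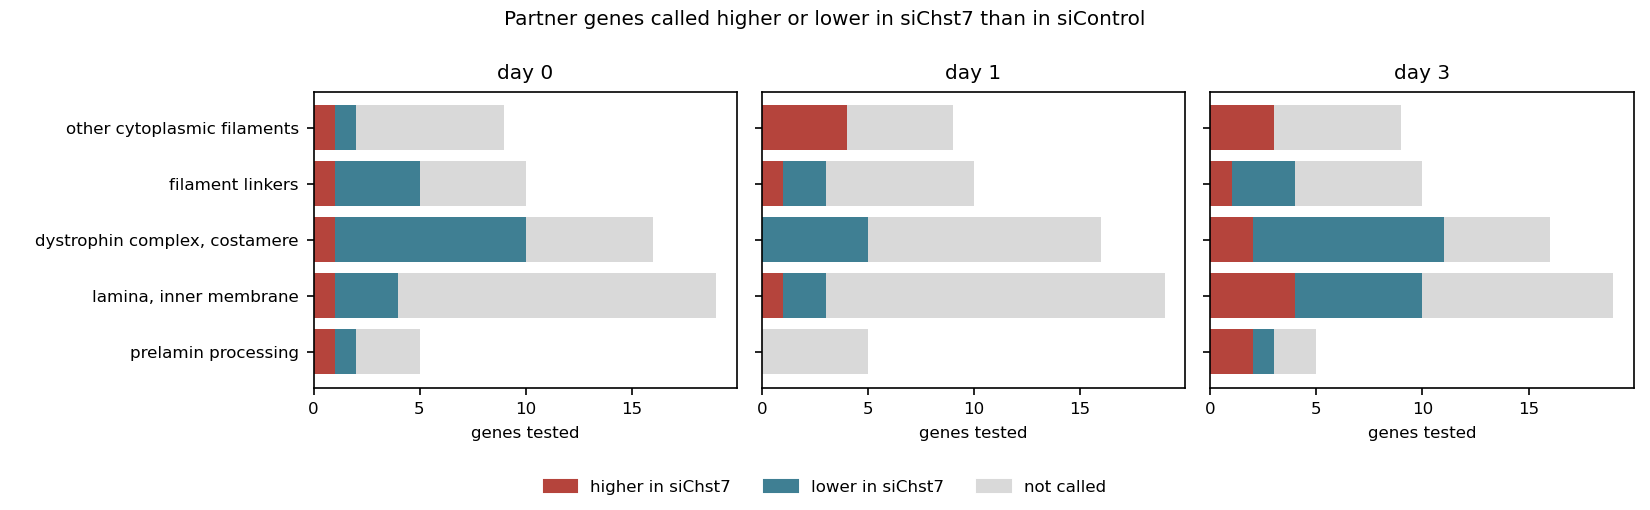
Number of genes called higher or lower (horizontal axis) in each list of partner genes, for siChst7 against siControl at days 0, 1 and 3. Costamere genes are mostly lower with siChst7 at days 0 and 3.

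Lamin B1 is known to be lost from senescent cells, so genes of the cell cycle and its inhibitors were read beside the lamins. Of 12 proliferation genes, 10 fell and 1 rose in siControl cells at day 3 relative to day 0, against 39.5% and 33.9% of all genes, with a median log2FC of -0.70 against -0.05 over all genes. Mki67 (-1.57 ± 0.05) and the mitotic regulator Foxm1 (-1.53 ± 0.05) were among those that fell. The inhibitor gene Cdkn1a rose (2.02 ± 0.05), as did Cdkn2b (1.39 ± 0.06) and Cdkn2a (1.04 ± 0.04), within 4 of 5 tested inhibitors, where 33.9% of all genes rose. Between siRNAs the median of the proliferation genes was -0.05 at day 0, against 0.01 over all genes, and at day 3 4 were higher with siChst7, Pcna (0.56 ± 0.10) among them, and 3 lower, against 23.1% and 21.6% of all genes. Of the 5 inhibitors, 3 were higher with siChst7 at day 0, against 13.9% of all genes, Cdkn2b (0.39 ± 0.06) among them. At day 1, 3 were lower, against 8.72%, and at day 3, 1 was lower, against 21.6%. Their median log2FC was 0.20 at day 0, -0.27 at day 1 and 0.00 at day 3, against 0.01 over all genes. The part of the cell cycle in the lamin values was not tested.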

How the data were processed

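Poly-A RNA of 18 libraries in 6 groups was measured. The authors deposited whole-number read counts per gene with a gene length. HISAT2, Subread, featureCounts, DESeq2 and mm10 are named per the submitters' processing notes, and their versions, the strand setting and the handling of reads with several matches were not given in the sources used here. Count columns were matched to libraries by the library name in the labels.

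The 8 genes, the partner lists and the marker lists were chosen with earlier results of these data known, and all 8 genes are reported in every comparison. From each list, up to 3 called genes of at least 5 CPM with the largest change, and the most abundant uncalled gene, may be named. Genes chosen after their values were seen are Col1a1, Sox2, Acta1, Myod1, Lum, Thy1, Adgre1, Tnnt2, Actn2, Myh6 and Myh11.

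Counts were filtered with filterByExpr, scaled by TMM and fitted in edgeR 4.0.16 (R 4.3.3, quasi-likelihood test, 12 residual degrees of freedom, common biological variation 5.75%), and p-values were adjusted over 13802 genes for each of 12 comparisons. RPKM used the deposited gene length. Depth was 30590742 to 50021142 counts per library. The script was tested on simulated data. Alternatives were other scalings and filters, DESeq2 1.42.0, fits of the compared groups alone, a replicate block and each library left out; a gene length correction and 2 libraries left out together (siChst7 day 3 replicate 1 and siChst7 day 0 replicate 3) were added after seeing the data.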

Additional observations from a re-analysis of the deposited data

Results flagged for a closer look

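By the interaction test in edgeR, the siChst7 difference itself differed between days for Nes, Sync, Des, Vim and Synm. Between day 1 and day 0 it differed for Nes (0.64 on the log2 scale) and Sync (0.77), and for 11.7% of all tested genes. Between day 3 and day 1 it differed for Des (-0.39) and Nes (-0.34), and for 28.4% of all genes. Between day 3 and day 0 it differed for Vim (0.16), Nes (0.30), Synm (-0.38) and Sync (1.13), and for 38.8% of all genes. The Vim value lost its call under other scalings and without single libraries, as given above. These comparisons share libraries, and the cause was not tested.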

How the results depend on the processing

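Each result was recalculated under 28 alternatives. Of the values of single genes, 2574 kept their direction and their side of the threshold, 48 became called, 38 lost their call and 28 changed sign. The genes called between siRNAs at day 1 were 5 with all libraries, 3 to 6 with 1 library left out and 7 with the compared groups alone. Those whose siChst7 difference changed between days 0 and 1 were 2, and 2 to 4 with 1 library left out. Between days 1 and 3 they were 2, but 4 with DESeq2 size factors, a stricter filter or the DESeq2 test, 5 without a filter and 2 to 6 with 1 library left out. Without siChst7 day 3 replicate 1 and siChst7 day 0 replicate 3, the genes called between siRNAs were 4 at day 0, 6 at day 1 and 6 at day 3. The replicate numbers did not pair the libraries (correlations of deviations -0.0656 to 0.0678 for same-numbered libraries). The fit with a replicate block called the same number of the 8 genes in all 12 comparisons, for example 4, 5 and 7 between siRNAs at days 0, 1 and 3, and called 3657, 2303 and 6024 of all genes, against 3785, 2426 and 6165 without it.

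All values that changed sign were uncalled with all libraries. Des between siRNAs at day 0 ranged over -0.35 to 0.028 with 1 library left out, and Lmnb1 was 0.044 with library totals and 0.0017 with upper quartile scaling. Nes in siControl cells at day 3 against day 1 was 0.018 with DESeq2 size factors or the DESeq2 test, 0.017 without a filter, 0.020 with the compared groups alone, 0.11 with library totals, 0.060 with upper quartile scaling, 0.028 with a stricter filter and 0.041 with a length correction, and -0.062 to 0.017 with 1 library left out. With library totals Sync was 0.035 and Lmna 0.033 in that comparison, and Vim was -0.018 and Lmnb1 -0.021 for the change of the siChst7 difference between days 0 and 1. Between days 0 and 3 that change ranged over -0.25 to 0.13 for Des and -0.046 to 0.053 for Lmnb2 with 1 library left out. For Lmnb2 it was also -0.022 with DESeq2 size factors, -0.020 with a stricter filter, -0.021 with the DESeq2 test, -0.023 with the compared groups alone, -0.083 with library totals, -0.012 with upper quartile scaling and -0.031 without a filter.

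Over all genes, the compared groups alone gave 3924 calls between siRNAs at day 1, against 2426, and 2448 for the change between days 0 and 1, against 1615, which was 2600 without siChst7 day 3 replicate 2. The share of calls that were higher was 69.4% with library totals against 50.6% between siRNAs at day 0, and 41.1% against 51.6% at day 3 without siChst7 replicate 3. At day 3 against day 1 in siControl cells it was 65% with library totals and 57.3% with upper quartile scaling against 41.4%, and in siChst7 cells 60.9% with library totals against 48.6%. At day 3 against day 0 in siControl cells it was 57.8% with library totals against 46.2%. For the change of the siChst7 difference it was 30.2% with library totals against 53% between days 0 and 1, 35.7% against 53.3% between days 0 and 3, and 42.8% without a filter and 41.8% with a length correction against 53.8% between days 1 and 3. Library totals moved the median of all genes to 0.10 from -0.05 for siControl at day 3 against either earlier day, and to 0.12 from 0.01 for siChst7 at day 3 against day 1, and to -0.10 from 0.01 for the change of the siChst7 difference between days 0 and 3. Causes were not tested.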
